A study of Mus musculus with 13 samples.

Results

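The comparison described here is that of mice fed a diet labelled HFSC with mice fed chow, in skeletal muscle that still carried the miR-181a2b2 locus. It takes the 7 flox libraries of the 13 in the series, chosen by the genotype and diet labels: chow flox replicates 2, 3 and 4 and HFSC flox replicates 1, 2, 3 and 4. Flox here means the genotype label miR-181a2b2flox/flox, a locus flanked by loxP sites on both alleles, which both groups share and which the sample titles write as WT. The labels do not spell out HFSC, and they give no age, strain, muscle or duration of feeding. The remaining 6 libraries come from systemic KO mice on the same diets (3 chow KO and 3 HFSC KO) and served to estimate the spread between libraries and as a second diet comparison that shares no library with the first. The design text also mentions hindlimb ischemia, with no statement of which samples came from an ischemic limb. The extraction protocol names white adipose tissue although each sample is labelled skeletal muscle. The labels name no animals, so each p-value reflects the spread among these libraries, part of which may be technical.

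Skeletal muscle is a mosaic of slow oxidative fibres and fast fibres, which build the same sarcomere from different paralogues of myosin, troponin, tropomyosin and the calcium pump of the sarcoplasmic reticulum. Muscle also runs a circadian clock, in which the CLOCK and BMAL1 (Arntl) activators drive the Per and Cry repressors and the output factors of the PAR bZIP family through E-box elements. When fatty acids are plentiful, muscle raises genes of fatty acid uptake and mitochondrial oxidation, largely through PPAR receptors.

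The libraries held 20830943 to 45710227 counts, and 3 counts in a flox library corresponded to 0.0633 to 0.152 CPM (counts scaled to a common library size after correction by the trimmed mean of M values). Intervals and floors cover counting error only. Muscle transcripts were abundant in every library: Myh4, which encodes the fast glycolytic myosin heavy chain, stood at 25230 to 74250 CPM. Adipocyte markers were present at a low level, with Adipoq, which encodes adiponectin, at 7.24 to 19.3 CPM and no separation of the groups. Of 10 skin keratinocyte markers, 7 did not pass the low-count filter. Xist had 1 to 6 reads and Ddx3y 2097 to 4896 reads in the 7 libraries, which were thus alike in their sex-linked transcripts.

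Before any diet result, 2 libraries have to be described. Chow flox replicate 4 lay apart from the other chow flox libraries on the first principal component of the 7 flox libraries (44.6% of the variance), at 69.1 against -22.9 and -64.0, while the HFSC flox libraries lay between -5.52 and 14.8. The second component (20.5%) separated the diets, with chow flox at 24.0 to 35.8 and HFSC flox at -30.5 to -14.8. The library labelled HFSC flox replicate 4 grouped with the KO libraries in a check of its genotype label. After the values were seen, 6 genes were found that separated the other 6 flox libraries from all 6 KO libraries by at least 2-fold, and for 6 of these 6 genes this library lay nearer to KO. It had 0 reads of the mitochondrial glycine tRNA mt-Tg, against 107 to 181 reads in the other flox libraries and 0 in every KO library. For mt-Nd3, a subunit of complex I, it had 114 reads, against 861 to 1561 in flox and 39 to 45 in KO. For Gm28438 on chromosome 1 it had 2285 reads, against 25 to 83 in flox and 931 to 1411 in KO. The genes mt-Tg, mt-Nd3 and mt-Tr adjoin on the mitochondrial genome (9391 to 9875), so the 6 genes are not independent of each other. Gm28438 had many reads where mt-Nd3 had few, and whether these genes share reads was not tested. None of the 6 lies on chromosome 2, which holds the targeted locus, so the check does not reach the genotype at that locus. In the same check each of the other 12 libraries fell on the side of its own label. The cause was not tested. The counts of called genes in this contrast, overall and for the slow fibre, clock and fatty acid lists, are also given without this library. The targeted microRNAs do not settle the matter: Mir181a-2 had 2, 1 and 0 reads in chow flox and 1, 0, 0 and 0 in HFSC flox, and Mir181b-2 had 0 reads in all 7 libraries.

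Across 16496 tested genes, 69 differed between HFSC flox and chow flox at an adjusted p under 0.05 in edgeR's quasi-likelihood test (0.418% of genes). Of these, 19 were higher on HFSC (0.115%) and 50 lower (0.303%). With library totals in place of scaling factors the split was 9 higher and 47 lower, and the log2 fold changes of all genes then had a median of -0.164 instead of -0.014. In all 69 genes the 3 chow flox and the 4 HFSC flox libraries did not overlap, whereas over all tested genes this held for 4.26% in the higher and 5.6% in the lower direction. Without the library labelled HFSC flox replicate 4, 17 genes were called (0.104%), 3 higher (0.0183%) and 14 lower (0.0854%). Of the 69 genes 16 remained called, and the 68 that could be tested kept their sign, with no log2 fold change moved by over 1.5 times. As the libraries of the 2 diets did not overlap in these genes, their sign could hardly change. Without chow flox replicate 4, 1456 genes were called (8.58%), 740 higher (4.36%) and 716 lower (4.22%), among them all 69. Without both libraries 529 were called (3.13%), 262 higher (1.55%) and 267 lower (1.58%), with 55 of the 69 among them. Without chow flox replicate 2 the counts were 2 higher and 13 lower, and without chow flox replicate 3 they were 3 and 26. Leaving out HFSC flox replicates 1, 2 or 3 gave 9 and 30, 40 and 34, or 11 and 34. Leaving out a KO library, which enters through the shared spread, the low-count filter and the scaling, gave 6 to 15 higher and 23 to 41 lower. At an unadjusted p under 0.05, 5.93% of genes were higher and 6.83% lower.

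Of the 35 gene lists examined, that of slow fibre genes had the median farthest from 0. Of 16 slow fibre genes tested, 9 fell and 0 rose, where 0.303% of all genes fell, and the median log2 fold change of the list was -2.40 against -0.01 over all genes. A fit of only the flox groups, without the KO libraries, left 1 slow fibre gene called at the same median. Without the library labelled HFSC flox replicate 4, 6 of the 16 fell and the median was -2.22. In that fit 0.0854% of all genes fell. Values per library are given here and below as CPM in the order chow flox replicates 2, 3 and 4, then HFSC flox replicates 1, 2, 3 and 4. Myh7, the slow beta myosin heavy chain (chromosome 14, 54970684 to 54994626, minus strand), had 3416, 2410 and 3146 CPM on chow and 548, 238.5, 169 and 163 CPM on HFSC. The groups did not overlap, and HFSC flox replicate 1 was the highest of its group. The log2 fold change was -3.42 ± 0.40 (SE; adjusted p = 0.002731).

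**Figure D1:**
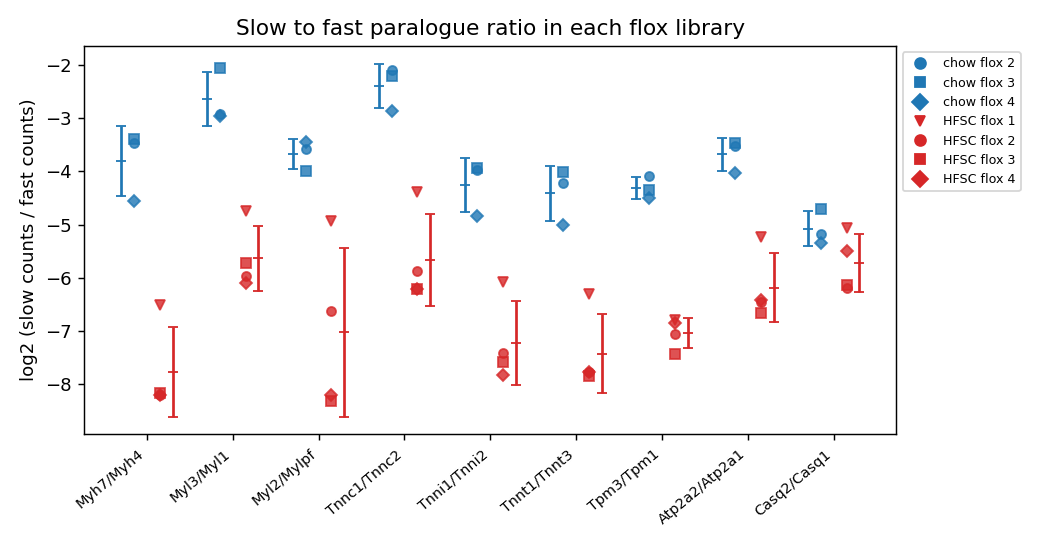
Slow to fast paralogue ratio in each flox library: the vertical axis is log2 of slow over fast counts (0.5 counts added to each), the horizontal axis the 9 paralogue pairs, points are libraries (blue chow flox, red HFSC flox) and bars are group mean ± SD. HFSC flox lies under chow flox without overlap in 8 pairs, and Casq2 to Casq1 overlaps.

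Tpm3, slow tropomyosin (chromosome 3, 90072649 to 90100902), had the smallest p of all genes. It stood at 711, 452 and 803 CPM on chow and at 123, 116, 93.4 and 112 CPM on HFSC, a log2 fold change of -2.56 ± 0.18 (adjusted p = 7.022e-05). Here the 4 HFSC flox libraries were close to each other and far under the lowest chow library. Myl3, the slow ventricular essential light chain, went from 915, 1249 and 1243 CPM to 297.5, 143, 198 and 136 CPM (-2.55 ± 0.27, adjusted p = 0.001461). Atp2a2, the calcium pump SERCA2, went from 1763, 1329 and 1741 CPM to 540, 318, 248 and 255 CPM (-2.24 ± 0.28, adjusted p = 0.00502). The calls of Myh7, Tpm3, Myl3 and Atp2a2 held without the library labelled HFSC flox replicate 4.

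The slow troponin complex fell in each of its subunits. The calcium-binding subunit gene Tnnc1 stood at 296 to 393 CPM on chow and 25.5 to 93.6 CPM on HFSC (-2.95 ± 0.40). Tnnt1, the tropomyosin-binding subunit, had 685, 616.5 and 672 CPM against 194, 83.0, 79.1 and 73.5 CPM (-2.61 ± 0.44), and Tnni1, the inhibitory subunit, fell by 2.63 ± 0.49 on the log2 scale. Of these only Tnnc1 stayed under the threshold without the library labelled HFSC flox replicate 4 (adjusted p = 0.03866, against 0.1104 for Tnnt1 and 0.1442 for Tnni1 in edgeR). Myh7b, a slow-type myosin heavy chain that hosts a microRNA, fell from 25.4, 19.6 and 27.5 CPM to 6.92, 2.84, 3.02 and 3.15 CPM. Myoz2, the slow isoform of the Z-disc protein calsarcin, fell by 1.72 ± 0.30. Myl2, the slow regulatory light chain, went from 512, 306 and 622 CPM to 191, 67.0, 30.3 and 29.3 CPM without passing (-2.60 ± 0.55, adjusted p = 0.07089).

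Not every gene linked to slow fibres moved. Casq2, the slow isoform of calsequestrin (-0.32 ± 0.22), the SERCA inhibitor genes Pln (-0.82 ± 0.36) and Sln (0.01 ± 0.79), and the stretch-responsive genes Csrp3 (-0.13 ± 0.45) and Ankrd2 (0.01 ± 0.34) overlapped between the diets and did not pass. For each of the 16 list members HFSC flox replicate 1 had the highest value of the 4 HFSC flox libraries. Its summed level over the list was 2855 CPM, against 1226 to 1375 CPM in the other HFSC flox libraries and 7575 to 9499 CPM on chow. In bulk muscle, fewer slow fibres and less slow transcript per fibre cannot be told apart, and the labels do not name the muscle sampled.

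Ratios of slow to fast paralogues, which do not depend on library scaling, gave the same picture pair by pair, as the plot of these ratios shows. In 8 of 9 pairs the libraries of the 2 diets did not overlap, with HFSC minus chow between -3.96 (Myh7 to Myh4) and -2.51 (Atp2a2 to Atp2a1) on the log2 scale. Each of these gave p = 0.05714 in a two-sided exact permutation test, the smallest value that 3 against 4 libraries allow (2 of 35 splits), or 0.06428 adjusted over the 9 pairs. For Casq2 to Casq1 the difference was -0.65 (exact permutation p = 0.1714). Per exon length, Myh7 made up 5.07%, 4.81% and 2.59% of the 4 adult myosin heavy chains on chow and 0.644%, 0.207%, 0.203% and 0.184% on HFSC. Myh2, of fast oxidative fibres, ranged from 4.22% to 11.2% on chow and from 3.64% to 4.83% on HFSC. Myh1, of the intermediate fast type, took 5.71% to 11.9% on chow and 8.89% to 18.4% on HFSC, and Myh4 took 72.1% to 87.5% and 77.8% to 87.0%. The shares of these 3 fast chains overlapped between the diets.

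Of 16 fast fibre genes none passed in edgeR (1 at an unadjusted p under 0.05, as were 2105 of all 16496 genes). The list's median was 0.21. Myh1 had 4549, 4398 and 5121 CPM on chow and 6707, 7567, 7421 and 11960 CPM on HFSC, the only member without overlap (0.84 ± 0.26, adjusted p = 0.1978). Of all genes 4.26% did not overlap in this direction. Chow flox replicate 4 had a summed fast fibre level of 207100 CPM, against 96760 and 128700 in the other chow flox libraries. Leaving it out, 2 members passed, namely Tnnt3 (0.58) and Mybpc2 (0.79), and the median was 0.50. In that fit 4.36% of all genes rose. Leaving out chow flox replicate 3 took the median to -0.01.

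Several further genes that fell lay outside the slow fibre list. Sim1, a transcription factor, went from 1.34, 3.21 and 3.24 CPM to 0.507, 0.0507, 0.0824 and 0.148 CPM (-3.68 ± 0.51). HFSC flox replicates 2 and 3 held no more than 3 reads of it, so the size of this fold is uncertain. Mylk3, the cardiac myosin light chain kinase, fell by 2.97 ± 0.42, with under 3 reads in HFSC flox replicate 2. Myh6, which encodes the alpha myosin heavy chain of the heart, went from 10.3, 7.45 and 10.3 CPM to 3.55, 2.94, 1.32 and 1.52 CPM (-2.03 ± 0.29). The homeobox genes Emx2 (-1.31 ± 0.25) and Hoxb5 (-1.47 ± 0.26) and Lgi1, a secreted synaptic protein gene (-2.19 ± 0.41), fell as well. Without the library labelled HFSC flox replicate 4, Mylk3 and Myh6 remained called (adjusted p = 0.04168 for both), and Sim1 (0.05907), Hoxb5 (0.1052), Emx2 (0.1463) and Lgi1 (0.1725) did not. Mhrt, a transcript antisense to Myh7 that overlaps it by 3666 bases, fell from 1.66, 1.10 and 0.953 CPM to between 0 and 0.0824 CPM (adjusted p = 0.0141), too few reads for a fold. Emx2os, antisense to Emx2 with 264 shared bases, fell by 2.02 ± 0.38. The predicted gene Gm43361 lies wholly inside Atp2a2 on the opposite strand and fell by 1.71 ± 0.28. No strand setting is given for the counts, so reads in the bases that these overlapping partners share cannot be told apart. Tpm3-rs7 (-1.70 ± 0.30) is a near copy of Tpm3 and may share its reads. Mhrt, Emx2os, Gm43361 and Tpm3-rs7 also lost their calls without that library (adjusted p = 0.05907, 0.1595, 0.08839 and 0.1104).

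The circadian clock was the other gene group in which several members moved, in opposite directions. Of 19 clock genes tested, 2 rose and 4 fell, against 0.115% and 0.303% of all genes. The groups did not overlap for 5 higher and 6 lower, which held for 4.26% and 5.6% of all genes. The list's median was -0.24, or -0.15 without HFSC flox replicate 3. Leaving out chow flox replicate 4 gave 4 that rose and 5 that fell, with a median of 0.12. In that fit 4.36% of all genes rose and 4.22% fell. Without the library labelled HFSC flox replicate 4, Arntl and Per2 remained called, 1 in each direction. There 0.0183% of all genes rose and 0.0854% fell. The promoter windows of the called clock genes were read from RefSeq (GRCm38.p6, 250 bases before to 50 after each start): 5 of the 6 have a window, and those of Ciart and Per3 are shown up to the start because they hold repeated clock motifs. Capitals mark matches to the E-box CACGTG in Ciart (chr3:95882229-95882478, minus strand) and to the D-box TTATGTAA in Per3 (chr4:151044666-151044915, minus strand), searched on both strands.
Ciart: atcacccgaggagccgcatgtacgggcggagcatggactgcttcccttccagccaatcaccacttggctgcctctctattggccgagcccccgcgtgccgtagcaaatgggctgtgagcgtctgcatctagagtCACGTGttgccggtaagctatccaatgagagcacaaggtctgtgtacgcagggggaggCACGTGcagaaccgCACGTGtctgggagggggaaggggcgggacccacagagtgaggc
Per3: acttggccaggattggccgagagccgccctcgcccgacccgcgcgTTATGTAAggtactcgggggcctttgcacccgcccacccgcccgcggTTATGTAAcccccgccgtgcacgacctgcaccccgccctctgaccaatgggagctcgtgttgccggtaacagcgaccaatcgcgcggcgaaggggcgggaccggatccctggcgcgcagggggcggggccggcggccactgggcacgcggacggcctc
Among 32851 promoter windows of this length, 7.15% held the E-box and 0.938% the D-box. The Ciart window held 3 E-boxes and the Per3 window 2 D-boxes. The half-site AGGTCA of nuclear receptors such as ROR and REV-ERB, found in 16.3% of windows, occurred in 1 window each of Arntl and Clock, and the Cry2 window held none of the 3 motifs. Of the 19 clock genes 16 had a window, with 21 windows in all, and 5 of these genes held an E-box and 1 a D-box. These are counts of genes, whereas the percentages above are of windows. Of the genes with an E-box, Per1, Cry1, Tef and Bhlhe41 were not called. A match describes these letters and is no evidence of binding.

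On the activator side Arntl, which encodes BMAL1, rose from 4.70, 5.18 and 9.95 CPM to 25.3, 30.2, 18.5 and 21.9 CPM (1.87 ± 0.28, adjusted p = 0.01282). Its partner Clock went from 32.4, 33.5 and 42.4 CPM to 67.1, 62.8, 49.8 and 54.8 CPM (0.70 ± 0.14, adjusted p = 0.04937). Chow flox replicate 4 was the highest chow library for both. Npas2, a paralogue of Clock, stood at 0.457 to 1.12 CPM on chow and 2.47 to 3.51 CPM on HFSC and did not pass (2.07 ± 0.45, adjusted p = 0.0788). Per2, a repressor, had 41.7, 29.7 and 32.6 CPM on chow and 9.49, 9.73, 10.9 and 9.90 CPM on HFSC (-1.79 ± 0.19, adjusted p = 0.001461). Its 4 HFSC values lay close together, far under the lowest chow library. Per3 fell from 88.0, 75.9 and 54.5 CPM to 26.1, 23.7, 45.3 and 20.8 CPM (-1.33 ± 0.24), with HFSC flox replicate 3 nearest to the chow level. Ciart, a repressor of the CLOCK and BMAL1 complex, fell by 1.40 ± 0.26 and Cry2 by 0.73 ± 0.14.

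**Figure D2:**
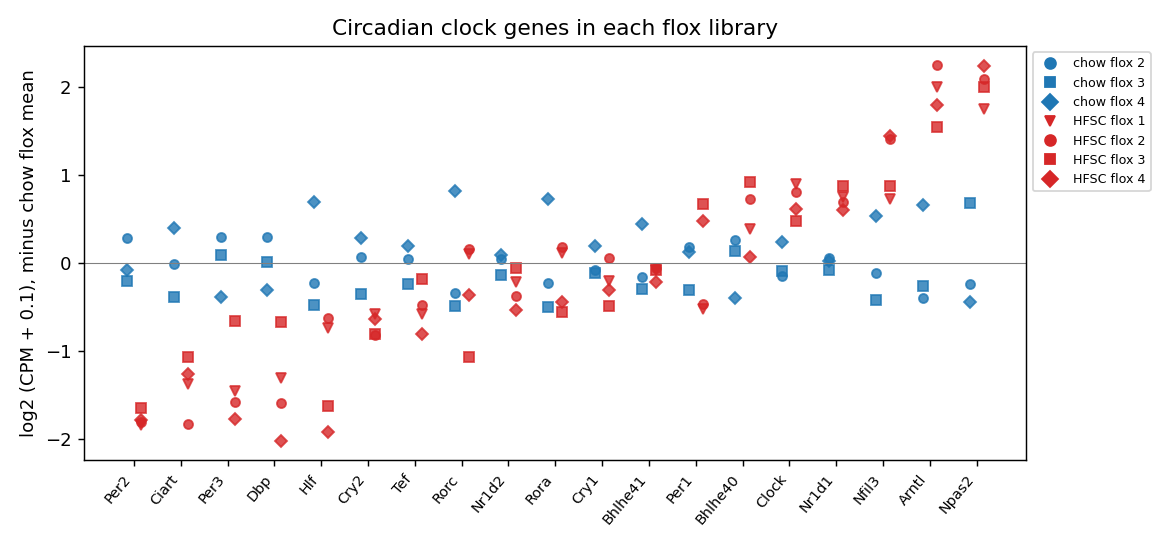
Circadian clock genes in each flox library: log2 (CPM + 0.1) minus the chow flox mean on the vertical axis, genes ordered by fold change, blue chow flox and red HFSC flox. Per2, Ciart, Per3, Dbp, Hlf and Cry2 lie under every chow flox library and Clock, Nr1d1, Nfil3, Arntl and Npas2 over every one in all 4 HFSC flox libraries.

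None of the output factors of the clock passed, nor did the receptors of the REV-ERB family or Per1. Dbp, a D-box activator, went from 127, 104 and 83.3 CPM to 41.7, 34.3, 64.7 and 25.3 CPM (-1.33 ± 0.27, adjusted p = 0.05644), without overlap. Hlf, of the same family, stood lower on HFSC by log2 values of -1.24 ± 0.32 (adjusted p = 0.1342) and Tef one of -0.50 ± 0.16. Nfil3, a D-box repressor, stood at 15.01 to 29.3 CPM on chow and 33.6 to 55.0 CPM on HFSC (1.10 ± 0.29, adjusted p = 0.1413). Nr1d1, which encodes REV-ERB alpha, had 71.2 to 78.1 CPM on chow and 114 to 138 CPM on HFSC (0.73 ± 0.24, adjusted p = 0.2265), while its paralogue Nr1d2 overlapped (-0.29 ± 0.13). Per1 overlapped too, with HFSC flox replicates 1 and 2 at 69.3 and 71.8 CPM and replicates 3 and 4 at 158 and 139 CPM, on either side of the chow range of 80.3 to 113. The labels give no time of day at which any sample was collected.

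No gene passed in edgeR among 34 that act in fatty acid uptake and oxidation. Of these genes 29 had a log2 fold change above 0, with a median of 0.52, and 18 did not overlap in the higher direction, which held for 4.26% of all genes. At an unadjusted p under 0.05 there were 22, against 2105 of all 16496 genes. Chow flox replicate 4 was the highest chow library for 30 of the 34, and the library labelled HFSC flox replicate 4 the highest HFSC library for 28. The summed level was 4368, 4328 and 6252 CPM on chow and 7286, 6847, 7171 and 10110 CPM on HFSC. Leaving out chow flox replicate 4, 23 of the 34 rose (median 0.67), where 4.36% of all genes rose. Without both libraries 15 rose (median 0.58), where 1.55% of all genes rose. Without the library labelled HFSC flox replicate 4 alone 0 passed (median 0.43).

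**Figure D3:**
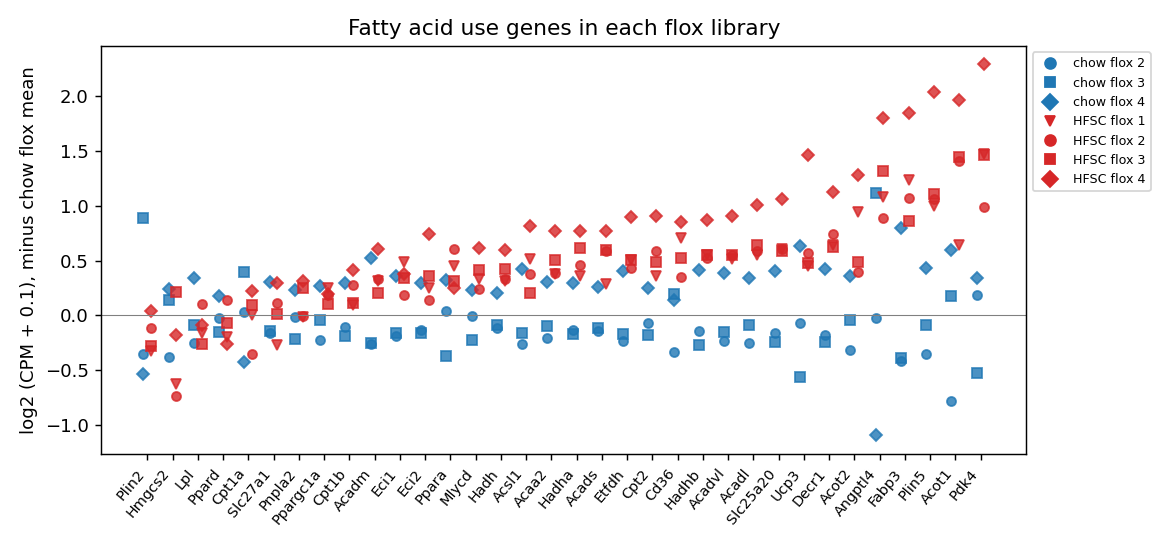
Fatty acid uptake and oxidation genes in each flox library: log2 (CPM + 0.1) minus the chow flox mean on the vertical axis, 34 genes ordered by fold change, blue chow flox and red HFSC flox. The library labelled HFSC flox replicate 4 is the highest HFSC library for 28 genes, and 18 genes do not overlap between the diets.

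Pdk4, the kinase that shuts off pyruvate dehydrogenase, had 635, 389 and 711 CPM on chow and 1556, 1113, 1546 and 2732 CPM on HFSC (1.59 ± 0.36, adjusted p = 0.08359). Plin5, the lipid droplet protein of oxidative tissues, went from 9.63, 11.6 and 16.6 CPM to 24.6, 25.7, 26.6 and 50.6 CPM (1.35 ± 0.28, adjusted p = 0.06123). The groups did not overlap for either gene, and the library labelled HFSC flox replicate 4 was the highest in each. Decr1, the auxiliary reductase for unsaturated fatty acids, stood at 87.4, 83.7 and 133 CPM against 155, 166, 153 and 216 CPM (0.77 ± 0.17, adjusted p = 0.07977). The mitochondrial trifunctional protein genes Hadha (0.54 ± 0.15) and Hadhb (0.60 ± 0.16), the carnitine carrier Slc25a20 (0.70 ± 0.17) and the uptake genes Cd36 (0.60 ± 0.18) and Fabp3 (1.18 ± 0.31) showed the same order without passing. Cpt1a (-0.03), Lpl (-0.12), Plin2 (-0.31) and the receptor Ppard (-0.10) overlapped.

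Mitochondrial transcripts gave a mixed result. Of 28 nuclear-encoded respiratory chain genes none passed (median 0.28, or 0.47 without chow flox replicate 4 and 0.18 without replicate 3). In edgeR 9 had an unadjusted p under 0.05, as had 2105 of all 16496 genes. Sdhb (0.49 ± 0.16), Uqcrc2 (0.48 ± 0.16) and Uqcrfs1 (0.48 ± 0.15) were the 3 without overlap, all higher on HFSC, which held for 4.26% of all genes. Once chow flox replicate 4 was left out, 11 of the 28 rose, and so did 11 of 13 mitochondrially encoded mRNAs. In that fit 4.36% of all genes rose. With that library none of the 13 passed (4 at an unadjusted p under 0.05). The median of the 13 was 0.43, or 0.83 without chow flox replicate 4, 0.28 without replicate 2 and 0.24 without replicate 3. Chow flox replicate 4 had the highest chow value for all 13, for example 35060 CPM of mt-Co1 against 18980 and 18940. The mitochondrial tRNA gene mt-Tl1 rose from 20.8, 22.2 and 47.0 CPM to 108, 114, 91.4 and 101 CPM (1.79 ± 0.31), and mt-Tp (0.88 ± 0.17) and mt-Tw (1.49 ± 0.29) rose as well. These tRNA genes were read from a polyA-selected library and none of the 3 passed without the library labelled HFSC flox replicate 4 (adjusted p = 0.08839 for mt-Tl1 and mt-Tw and 0.1574 for mt-Tp). The mt-Nd3 and mt-Tg values of that library are given above.

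Among secreted and signalling genes, Ccn1, a matricellular protein and target of the YAP coactivator, rose from 43.2, 48.9 and 35.7 CPM to 128, 150, 96.1 and 171 CPM (1.68 ± 0.20, adjusted p = 0.002731). It was the 1 YAP target of 12 that passed, while Ccn2 (0.43 ± 0.36) and Ankrd1 (0.67 ± 0.69) overlapped. Erfe, the iron-regulating hormone erythroferrone, had 0.916, 0.962 and 0.839 CPM on chow and 2.97, 5.12, 2.77 and 3.48 CPM on HFSC (1.97 ± 0.34). It was the only one of 18 myokine genes to pass. Rspo3, a secreted activator of Wnt signalling, fell from 5.82, 6.44 and 4.80 CPM to 1.38, 1.27, 1.51 and 1.69 CPM (-1.95 ± 0.22), the only one of 26 vascular growth genes to pass. Over all tested genes 0.115% rose and 0.303% fell. Ccn1 and Rspo3 stayed under the threshold without the library labelled HFSC flox replicate 4 (adjusted p = 0.008527 for both), and Erfe did not (adjusted p = 0.09979). Vegfa, the principal endothelial growth factor, stood at 155, 170 and 184 CPM against 254, 222, 277 and 220 CPM and did not pass (0.52 ± 0.14, adjusted p = 0.1425). Its receptor gene Kdr did not pass either (0.76 ± 0.21, adjusted p = 0.1466).

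Cxcr4, a chemokine receptor gene that the series title names, did not pass. It had 8.34, 19.6 and 2.94 CPM on chow and 4.86, 3.95, 6.81 and 4.92 CPM on HFSC, so that chow flox replicate 4 lay under and the other chow libraries over the HFSC range (-1.0 ± 0.43, adjusted p = 0.3578). Leaving out chow flox replicate 4 gave -1.43 (adjusted p = 0.02025). Its ligand gene Cxcl12 overlapped (-0.17 ± 0.26). At the targeted locus on chromosome 2, Nr6a1, whose span holds both microRNA genes, stood at 0.43 ± 0.23 and Nr6a1os, its antisense transcript, at 0.37 ± 0.33 on the log2 scale, with overlap in both.

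Of 20 immediate early genes, which respond to cell stimulation within minutes, none passed in edgeR. An unadjusted p under 0.05 was seen for 10 of the 20, and for 2105 of all 16496 genes. The log2 fold changes of the 20 were above 0 for 16 and below 0 for 4. Their median was 0.55, or 0.84 without chow flox replicate 3. In the higher direction 8 did not overlap, which held for 4.26% of all genes. Chow flox replicate 4 was the lowest of the 7 flox libraries for 15 of the 20. Fosb went from 1.24, 2.11 and 0.496 CPM to 4.66, 5.73, 23.5 and 33.5 CPM (3.69 ± 0.75, adjusted p = 0.06123). Fos had 5.49 to 20.5 CPM on chow and 28.5, 51.5, 243 and 247 CPM on HFSC, so HFSC flox replicates 3 and 4 lay well over replicates 1 and 2. Nr4a3, an orphan nuclear receptor gene, stood at 6.67 to 9.43 CPM against 60.9, 78.5, 20.5 and 61.3 CPM (2.73 ± 0.60, adjusted p = 0.07937). Atf3 (1.66 ± 0.41) and Btg2 (1.15 ± 0.29) did not overlap either, and Jun did (-0.13 ± 0.29).

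Of 12 xenobiotic and detoxification genes 2 fell and 0 rose (median -0.16), where 0.303% of all genes fell and 0.115% rose. Cyp2e1, the ethanol-inducible cytochrome P450, went from 18.9, 8.92 and 14.6 CPM to 3.17, 2.79, 4.48 and 2.72 CPM (-2.10 ± 0.27, adjusted p = 0.006715). Abcc1, a multidrug and leukotriene exporter, went from 84.9, 85.5 and 88.1 CPM to 47.7, 56.7, 58.8 and 50.1 CPM (-0.69 ± 0.09, adjusted p = 0.006715). Both stayed called without the library labelled HFSC flox replicate 4. Outside this list Ephx1, the microsomal epoxide hydrolase, fell by 0.89 ± 0.13, Inmt, an N-methyltransferase, by 1.36 ± 0.24, and Cyp2f2 from 8.07, 7.67 and 3.51 CPM to 0.371, 0.507, 2.03 and 1.01 CPM (-2.66 ± 0.47). These 3 lost their calls without that library (adjusted p = 0.05195, 0.1104 and 0.1317).

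The remaining called genes stood in no list. Those with a gene name that rose were Smoc2, a matrix calcium-binding protein gene (63.9 to 67.7 CPM on chow and 92.4 to 101 CPM on HFSC, log2 fold change 0.56 ± 0.08), Mcc (0.96 ± 0.14), Efr3b (0.76 ± 0.12), the receptor phosphatase gene Ptprg (0.59 ± 0.10), the scaffold gene Akap12 (0.88 ± 0.16), Tmem140 (1.17 ± 0.21) and Cyyr1 (0.60 ± 0.12). Those that fell included Rbm3, the cold-inducible RNA-binding protein gene, from 89.3, 99.0 and 88.8 CPM to 56.7, 42.9, 58.7 and 50.8 CPM (-0.82 ± 0.12), and the splicing factor gene Tra2a (-0.67 ± 0.11). The predicted gene Gm43980 lies inside Tra2a on the opposite strand and fell by 1.66 ± 0.17. Reads in its span cannot be told apart from those of Tra2a. Nlrc3 (-1.22 ± 0.20), the nuclear exporter gene Xpo4 (-1.22 ± 0.23), Tspan4 (-1.0 ± 0.17), Adamtsl4 (-0.70 ± 0.13), Tbkbp1 (-0.63 ± 0.12), Ankrd12 (-0.56 ± 0.10) and Zfp523 (-0.46 ± 0.08) also fell. Called genes of low level were Fxyd7 (-1.65), Chil3 (-1.99), Gkn3 (-2.52) and Tm6sf2 (-2.60), each under 2.5 CPM in every flox library. Of the genes named from Smoc2 to Tm6sf2 only Gm43980 was called without the library labelled HFSC flox replicate 4 (adjusted p = 0.008527), the others lying between 0.05907 and 0.1782. A further 10 called genes carry predicted, clone or pseudogene names, 5 that rose (1.70 to 3.29) and 5 that fell (-2.23 to -0.99). The value of 3.29 is that of Gm25911, with under 3 reads in chow flox replicates 2 and 4, so its size is uncertain.

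No member of the lists of other cell types passed in this contrast, and chow flox replicate 4 set much of the spread of these lists. The summed level of 21 macrophage markers was 568, 1298 and 176 CPM on chow and 374 to 521 CPM on HFSC, so the HFSC libraries lay inside the chow range. None of the 21 passed in edgeR (median -0.53), and 3 had an unadjusted p under 0.05, as had 2105 of all 16496 genes. Without chow flox replicate 4, 10 fell and 1 rose (median -0.94), where 4.22% of all genes fell and 4.36% rose. Chow flox replicate 3 was the highest of the 7 libraries for 18 of the 21, and without it the median was 0.16. The gene that rose without chow flox replicate 4 was Cd163 (0.89), a marker of resident macrophages that was highest in chow flox replicate 4, and Csf1r (-0.86), Cd68 (-1.71) and C1qa (-0.98) were among those that fell. Of 20 interferon response genes none passed (median -0.47; 3 at an unadjusted p under 0.05), with chow flox replicate 4 the lowest chow library for all 20, and 10 fell without it (median -0.81). The interferon median was -0.18 without chow flox replicate 2 and -0.25 without replicate 3. Of 26 fibroblast and matrix genes none passed (median 0.25; 3 at an unadjusted p under 0.05), with summed levels of 6110, 10110 and 2166 CPM on chow and 5462 to 7582 CPM on HFSC. The matrix median turned to -0.10 without chow flox replicate 4 and to -0.01 with library totals, and was 0.69 without chow flox replicate 3 and 0.16 without HFSC flox replicate 2. Of 22 endothelial markers none passed (median 0.27; 7 at an unadjusted p under 0.05). Without chow flox replicate 4, 2 of them fell and the median was 0.07, and with library totals it was 0.08. In contrast, 9 of 16 slow fibre genes fell without chow flox replicate 4 as well (median -2.27).

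**Figure D4:**
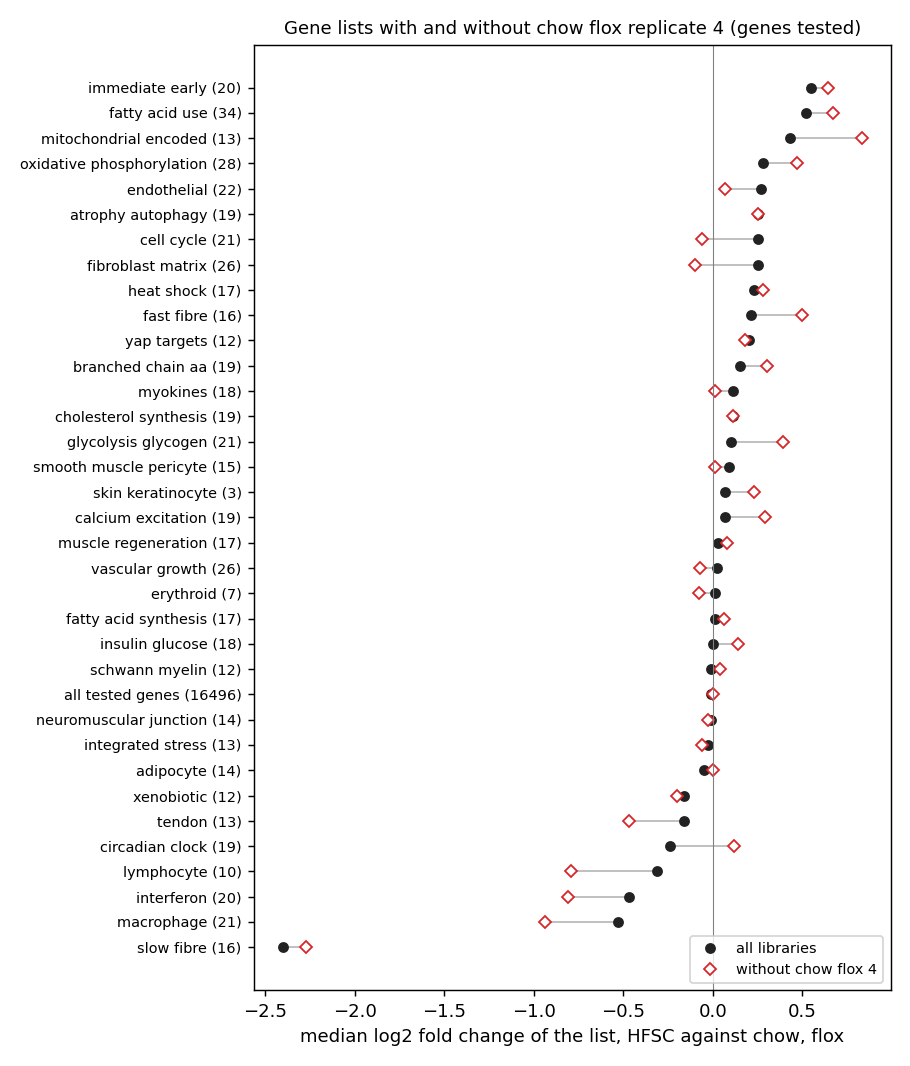
Median log2 fold change of each gene list, HFSC against chow in flox, with all libraries (black) and without chow flox replicate 4 (red, open), lists ordered by the first and the number of genes tested in brackets. The slow fibre list lies at -2.40 and -2.27, while the macrophage, interferon and mitochondrially encoded lists move away from 0 when that library is left out.

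Of the 1435 genes that passed without chow flox replicate 4 and were tested with it, this library lay inside the HFSC flox range for 477, beyond it on the side away from the other chow libraries for 592 and on their side for 366. Leo1, a subunit of the PAF1 transcription complex, is of the last kind, with 17.1, 15.4 and 27.3 CPM on chow and 33.7, 34.1, 30.7 and 34.8 CPM on HFSC (1.04 ± 0.10 without chow flox replicate 4, adjusted p = 0.0007179, and 0.74 with it, adjusted p = 0.07089). Ech1, of peroxisomal and mitochondrial fatty acid oxidation (0.93 ± 0.13), Slc41a3, a magnesium carrier (1.01 ± 0.12), Asb12 (1.01 ± 0.13) and Nkain1 (1.28 ± 0.16) rose without it too. For Slc41a3 chow flox replicate 4 stood at 87.4 CPM, within the HFSC range of 73.7 to 91.5 CPM, and the other chow libraries at 42.9 and 38.5 CPM. Among those that fell without it were Stab1, a scavenger receptor of macrophages and endothelium (-0.93 ± 0.13), the deacetylase gene Sirt7 (-0.96 ± 0.15), Ifitm1 (-2.91 ± 0.46), Scn2a (-2.36 ± 0.36) and Mfsd12 (-1.40 ± 0.19). None of these genes passed with all 7 libraries, their adjusted p lying between 0.06499 and 0.3786.

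In KO muscle the same diets were compared in 6 other libraries, where 4201 genes were called (25.5%), 14.9% higher and 10.6% lower. Of the 19 genes higher in flox 17 had a log2 fold change above 0 in KO and 11 were called higher there. Of the 50 lower in flox 46 were below 0 in KO and 35 were called lower. None was called in the opposite direction. Several genes that fell in flox stood near 0 in KO without passing there, among them Cyp2f2 (0.05), Inmt (-0.05) and Adamtsl4 (0.08). All 9 slow fibre genes that fell in flox fell in KO too, with Myh7 at -4.32 and Tpm3 at -3.49. Of the 6 called clock genes all had the same sign in KO and 4 passed, Arntl at 1.13, Per2 at -1.03, Per3 at -1.03 and Cry2 at -0.78, while Ciart (-0.78) and Clock (0.36) did not.

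**Figure D5:**
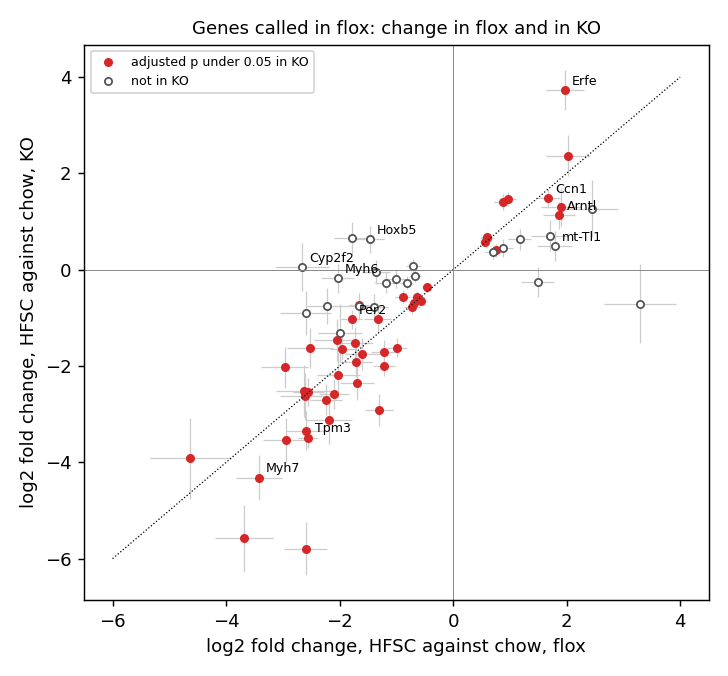
Log2 fold change of HFSC against chow in flox (horizontal) and in KO (vertical) for the 69 genes called in flox, with standard errors; filled red points also passed in KO, open points did not, and the dotted line marks equal change. Of the points to the right of 0, 17 of 19 lie above 0 in KO and of those to the left 46 of 50 below it. On the other side of 0 in KO lie mt-Tw, Gm25911, Hoxb5 and Gm28874, and, close to 0, Cyp2f2 (0.05) and Adamtsl4 (0.08).

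The difference between the 2 diet responses was tested as an interaction of diet and genotype, and no gene passed in edgeR (smallest adjusted p = 0.0625), though 4811 genes had an unadjusted p under 0.05 (29.2%). Among the 69 called genes 27 did so (39.1%). Restricted to the genes each called for flox, DESeq2 passed 70 interactions and limma voom 2324. Myh6 fell by 2.03 in flox and had a log2 fold change of -0.18 in KO (interaction unadjusted p = 0.0006398), with 9.90 CPM on average in HFSC KO against 2.33 CPM in HFSC flox. Hoxb5 had -1.47 in flox and 0.63 in KO, and mt-Tw 1.49 and -0.26. Gm34302, a predicted gene, fell by 2.60 in flox. In KO it fell too, to between 0.0328 and 0.107 CPM on HFSC. That is no more than 3 reads per library, too few for a fold. The predicted Gm28874 had -1.78 in flox and 0.66 in KO. None of these 5 interactions passed after adjustment.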

How the data were processed

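RNA-seq of polyA-selected RNA from skeletal muscle was deposited as 1 table of raw read counts per gene for 13 libraries. The authors made these counts with STAR 2.5.2b on GRCm38 after Trimmomatic 0.36, and with featureCounts of Subread 1.5.2, per the submitters' processing notes. How strand and multi-mapping reads were handled is not given in the sources used here. Symbols and coordinates (GRCm38) came from GENCODE M21, which held 49056 of the 49315 identifiers; the other 259 had no symbol.

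All 13 libraries were fitted together with 4 group means (edgeR 4.0.16 in R 4.3.3, trimmed mean of M values, filterByExpr, robust quasi-likelihood F test, Benjamini-Hochberg adjustment over 16496 genes, threshold 0.05), so that KO libraries add to the estimate of the spread. The standard error of a log2 fold change is its size divided by the square root of F. Every adjusted p is from this test unless another tool is named. Slow to fast ratios of counts, with 0.5 counts added, were compared with a two-sided exact permutation test. Alternatives included DESeq2 1.42.0 and limma 3.58.1 (voom with sample quality weights). Scripts were tested on simulated counts.

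The genes named are those called with no overlap, a gene symbol and a group mean reaching 1 CPM (at most 20 that rose and 30 that fell), up to 10 in each direction called only without chow flox replicate 4, 5 by the smallest interaction p, and members of 35 lists and of the locus; other called genes, and the 6 genes used to check the labels, were named after their values were seen. The comparison, the members and the lists were chosen with earlier results of these data known. The fit without both replicate 4 libraries was added after the data were seen. Libraries of each group differed from each other by more than sampling noise (chi-square per degree of freedom 26.28 to 193.3 within the flox groups).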

Additional observations from a re-analysis of the deposited data

Results flagged for a closer look

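Among 110 values examined in the 4 HFSC flox libraries, 6 had a library far from the other 3 by Dixon's criterion, and chance flags about 1 in 20 groups. HFSC flox replicate 1 was the high library in 5 of them, all slow fibre measures. Its Myh7b level was 6.922 CPM, against 2.837 to 3.146 CPM in the others. Its Tnnt1 level was 194.2 CPM, against 73.45 to 83.03 CPM. Summed over the slow fibre list it had 2855 CPM, against 1226 to 1375 CPM. Its log2 ratio of Myh7 to Myh4 was -6.51, against -8.2 to -8.17, and that of Tnnt1 to Tnnt3 was -6.31, against -7.84 to -7.77. These measures share genes and are not independent of each other. The library labelled HFSC flox replicate 4 was the high one in the sixth, the summed level of fatty acid uptake and oxidation genes, with 10110 CPM against 6847 to 7286 CPM.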

How the results depend on the processing

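All 69 called genes kept their sign under every alternative that gave them a value. Their libraries did not overlap between the diets, so the sign could hardly change and is no measure of stability. The counts of calls moved widely. DESeq2 called 199 genes higher and 193 lower, limma voom 2116 and 2060, the fit without a low-count filter 30 higher, and library totals 9 higher. A fit of only the flox groups called 0 higher and 4 lower in edgeR (1525 at an unadjusted p under 0.05), with 1 slow fibre gene lower. Without both replicate 4 libraries, 262 were higher and 267 lower. Leaving out 1 library at a time gave 2 to 740 higher and 13 to 716 lower. Interactions of diet and genotype among genes called in flox numbered 70 with DESeq2, 2324 with limma voom, 3 without the filter, 432 without both replicate 4 libraries, and 0 to 1053 with 1 library left out. The cause was not tested.

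Replicate numbers did not pair the samples (same-numbered libraries correlated at -0.19, 0.061 and -0.197). With the replicate block, 21 genes were higher and 30 lower, and with the replicate block in only the flox groups 0 were higher and 5 lower, 5 of them slow fibre genes (723 genes at an unadjusted p under 0.05).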

Other observations

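Genes of protein breakdown, insulin signalling, cholesterol synthesis and protein folding gave no call in edgeR. Over all genes 2105 of 16496 had an unadjusted p under 0.05 in that test. Of 19 atrophy and autophagy genes none passed (median 0.25; 7 at an unadjusted p under 0.05). The stress genes Mt2, a metallothionein (1.53 ± 0.47, adjusted p = 0.2046), and Cdkn1a, the cell cycle inhibitor p21 (1.26 ± 0.45, adjusted p = 0.2734), did not overlap between the diets. The muscle ubiquitin ligases Trim63 (0.84 ± 0.31) and Fbxo32 (0.65 ± 0.27) overlapped, and both rose without chow flox replicate 4 (1.28 and 1.01). In that fit 2 of the 19 rose and 1 fell, and the list's median was again 0.25. Of all genes 4.36% rose and 4.22% fell there.

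Of 18 insulin and glucose genes none passed in edgeR (median 0). An unadjusted p under 0.05 was seen for 5, and for 2105 of all 16496 genes. Grb14, an adaptor that inhibits the insulin receptor (0.79 ± 0.25, adjusted p = 0.2088), and the kinase gene Akt1 (-0.15 ± 0.09, adjusted p = 0.5423) did not overlap between the diets. Irs2, an insulin receptor substrate, stood at 1.08 ± 0.29 and Pik3r1, the regulatory subunit of PI 3-kinase, at -0.55 ± 0.16 on the log2 scale, both with overlap. Without chow flox replicate 4 the first rose (1.27) and the second fell (-0.72), where 4.36% of all genes rose and 4.22% fell. Of 19 cholesterol synthesis genes none passed (median 0.11; 5 at an unadjusted p under 0.05); Insig1, a sterol sensor, stood at 0.60 ± 0.17 and Lss, lanosterol synthase, at -0.49 ± 0.16, both without overlap. Of 17 heat shock and chaperone genes none passed (median 0.23; 6 at an unadjusted p under 0.05), with the endoplasmic reticulum chaperone gene Hspa5 at 0.38 ± 0.09 without overlap (adjusted p = 0.09805).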
